A study of Homo sapiens with 26 samples.

Results

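The chromatin around 9 genes through which p53 acts on the mitochondrial route to apoptosis was described from ChIP-seq peak lists of HCT116, a human colorectal carcinoma cell line with functional p53. The genes were BAX, BBC3, PMAIP1, AEN, TP53I3, TP53AIP1, APAF1, BCL2L1 and BID, out of 20176 protein-coding genes in the GRCh37 annotation. All peaks that overlapped the gene body or 50 kb to each side were taken, without regard to their strength. Peaks of all lists of a mark that overlapped were merged into regions, which gave 158 regions at the 9 genes of 87608 in all for acetylation of histone H3 at lysine 27 (H3K27ac), found at promoters and enhancers in use. For monomethylation at lysine 4 (H3K4me1), found broadly at enhancers, they gave 100 of 110276.

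Wild-type HCT116 cells (WT) had received the vehicle DMSO, here called 0 h, or Nutlin-3a for 1 h or 10 h, and both marks were measured at each point. Nutlin-3a keeps HDM2 from binding p53 and so activates p53 without DNA damage. HCT116_RAD21, a derivative called the RAD21 line below, was profiled for H3K27ac alone, at 0 h and 1 h. Every allele of RAD21, a subunit of cohesin, bears a degron tag in this line, according to the study's methods. Its cells received 5-Ph-IAA, which triggers degradation of the tagged protein, before Nutlin-3a. The sample labels do not state that treatment for either time. The peak names of the RAD21 line lists at both times carry the tag KD, and those of the WT lists do not. The study uses KD for conditions depleted of RAD21. Peak lists cannot show whether the protein was lost. Each of the 8 groups held 2 libraries with 1 peak list each, so there were 10 H3K27ac and 6 H3K4me1 lists. The titles number the libraries of a group as BR and the study speaks of biological replicates, but neither says whether they were separate cultures. The p-values below measure the spread between these lists. The peaks of RAD21 line 0 h replicate 2 carry the tags BR2 and BR3 together in their names, and those of RAD21 line 1 h replicate 2 and of both H3K4me1 1 h lists carry other replicate numbers than their titles. Whether any list pools replicates is not given in the sources used here. The lists hold no read counts, and the depth of each library was not used here.

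3 of the H3K27ac lists stood apart from the other 7. The peak names of both WT 0 h lists and of WT 1 h replicate 1 lack the word input that all other lists carry, and these 3 were the only lists with mitochondrial peaks. They covered 30.7 to 31.9 Mb of the genome, whereas the other 7 H3K27ac lists covered 49.1 to 66.6 Mb. WT 1 h replicate 2 was of the second form. WT 10 h and WT 0 h therefore differ in the form of the list as well as in treatment. A term for the list form can be fitted, but it rests on the 2 lists of WT 1 h, which differ in replicate too, and values with it are given for the promoters that rose at 10 h. WT 1 h replicate 1 against 0 h, and the RAD21 line at 1 h against 0 h, are comparisons within 1 form. Promoters of 6 of 8 epithelial marker genes were called in every H3K27ac list, while the colon genes CDX1 and VIL1 were called in none. The share of all protein-coding promoters called in every list was not computed for either mark, so such counts have no background. Promoters of 7 marker genes of other cell types, from PTPRC of blood cells to ALB of the liver, were called in none of them, whereas for H3K4me1 the promoters of 2 of the 7, GFAP and COL1A1, were called in all 6 lists.

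In the mitochondrial pathway, BH3-only proteins such as PUMA (BBC3), NOXA (PMAIP1) and BID relieve or activate BAX, which forms pores in the outer mitochondrial membrane. BCL-XL, the long product of BCL2L1, holds BAX and the BH3-only proteins in check. Cytochrome c that escapes through the pores binds APAF1 to build the apoptosome, where caspase-9 is activated. TP53AIP1 encodes a mitochondrial protein induced by p53, TP53I3 an oxidoreductase linked to reactive oxygen species, and AEN an exonuclease that takes part in the breakdown of DNA. p53 binds DNA as a tetramer at an element of 2 half-sites, each with a core of C, 2 bases of A or T, and G between purines and pyrimidines.

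To place the marks relative to the DNA that p53 can read, the p53 consensus element was searched on GRCh37 in the 9 windows. Both cores had to be exact, the half-sites adjacent (spacer of 0 bp), and up to 3 of the flanking positions could mismatch. The element is symmetric, so a match counts for both strands. 4 of the 9 genes held one within 1000 bp of the start site, compared with 3.13% of the same 2000 bp windows of 19856 protein-coding genes. These 4 and 3 distal ones are printed here on the strand of the gene, with the element in capitals and the flanks in lower case, and the genome sequence comes from the GRCh37 primary assembly. The first lies 131 bp upstream of the BBC3 start site at chr19:47734557-47734616 (minus strand, 3 mismatches), the second 437 bp upstream of PMAIP1 at chr18:57566761-57566820 (plus, 2 mismatches), the third 24 bp upstream of AEN at chr15:89164517-89164576 (plus, 2 mismatches), and the fourth 341 bp upstream of TP53I3 at chr2:24308030-24308059 (minus, 3 mismatches), in an exon of another TP53I3 transcript. The last 3 were chosen because a region changed there or because they match best: 44087 bp inside BCL2L1 at chr20:30266554-30266613 (minus, 1 mismatch), 2548 bp inside TP53AIP1 at chr11:128810188-128810247 (minus, 3 mismatches), and 13019 bp upstream of PMAIP1 at chr18:57554179-57554238 (plus, 1 mismatch).
BBC3 promoter: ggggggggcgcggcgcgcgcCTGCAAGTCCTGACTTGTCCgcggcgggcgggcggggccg
PMAIP1 promoter: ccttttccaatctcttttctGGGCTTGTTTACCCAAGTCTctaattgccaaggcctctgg
AEN promoter: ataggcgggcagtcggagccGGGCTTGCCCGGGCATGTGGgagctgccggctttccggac
TP53I3 promoter: gcaccCAGCTTGCCCACCCATGCTCaagat
BCL2L1 gene body: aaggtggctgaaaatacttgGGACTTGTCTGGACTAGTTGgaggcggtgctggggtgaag
TP53AIP1 gene body: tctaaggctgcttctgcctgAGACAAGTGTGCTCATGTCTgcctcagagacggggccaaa
PMAIP1 upstream: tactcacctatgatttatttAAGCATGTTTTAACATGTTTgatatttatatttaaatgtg

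TP53I3 also carried 15 copies of TGNCC in a row at chr2:24307213-24307287, 454 bp downstream of its start site in the 5′ untranslated region. A run of 5 or more copies on either strand occurred in 5 of the 19856 windows (0.0252%). In the 9 windows together, 79 elements were found, 27 of them inside an H3K27ac region and 38 inside an H3K4me1 region. Elements lay within the 1000 bp around the summit of 6.21% of all H3K27ac regions and of 2.03% of those called in every list. These are shares of regions and not of elements, so they are no background for the 27 and 38. The share of all elements in the genome that lie inside a region of either mark was not computed. BAX, TP53AIP1, APAF1, BCL2L1 and BID had no element within 1000 bp of their start sites under this rule. The PMAIP1 upstream element lay in an H3K4me1 region called in all 6 lists and in no H3K27ac region. A match to the consensus is a description of the letters and not a bound site.

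8 of the 9 member promoters carried H3K27ac in every list, and TP53AIP1 carried it in none. The share of all protein-coding promoters that did so was not computed. The strength of a promoter in a list is given as the percentile of its strongest peak by −log10 p among all peaks of that list, with 100 for the top. Changes are differences in normal score, the standard normal quantile of the rank among the 18757 regions called in all 10 H3K27ac lists, so that 1 unit is 1 SD of that ranking. They were fitted with limma over all 18757 regions and adjusted by Benjamini-Hochberg over all of them, with a threshold of 0.05. The 1 h and 10 h comparisons in WT share the 0 h lists. BAX, AEN and BCL2L1 rose in WT at 1 h, which makes 3 of 8 member promoters higher and 0 lower, where 14.3% of all regions were called higher and 14.8% lower. The regions of the same 3 promoters rose in WT at 10 h, with 0 lower, where 9.70% and 8.56% of all regions were called. That of BCL2L1 spans 35328 bp, and its summits at 10 h lay inside the gene. In the RAD21 line at 1 h, BAX, AEN and APAF1 rose and BCL2L1 fell, where 14.4% of all regions were called higher and 13.4% lower. The median change of the 8 promoters was 0.12, 0.18 and 0.15 in these 3 comparisons, and that of all regions was −0.01, −0.04 and 0.04. Ranked by fold enrichment instead of −log10 p, the promoter calls of both 1 h comparisons and of BAX at 10 h kept their direction and lost significance (limma, adjusted p from 0.0629 for AEN in the RAD21 line to 0.524 for BCL2L1 there), while those of AEN and BCL2L1 at 10 h held (adjusted p = 0.0299 and 0.0252). With that ranking 0 of all 18757 regions passed in either 1 h comparison, so the losses at 1 h are not particular to these promoters. Nor did any region pass for the difference between the lines in their 1 h change.

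**Figure D1:**
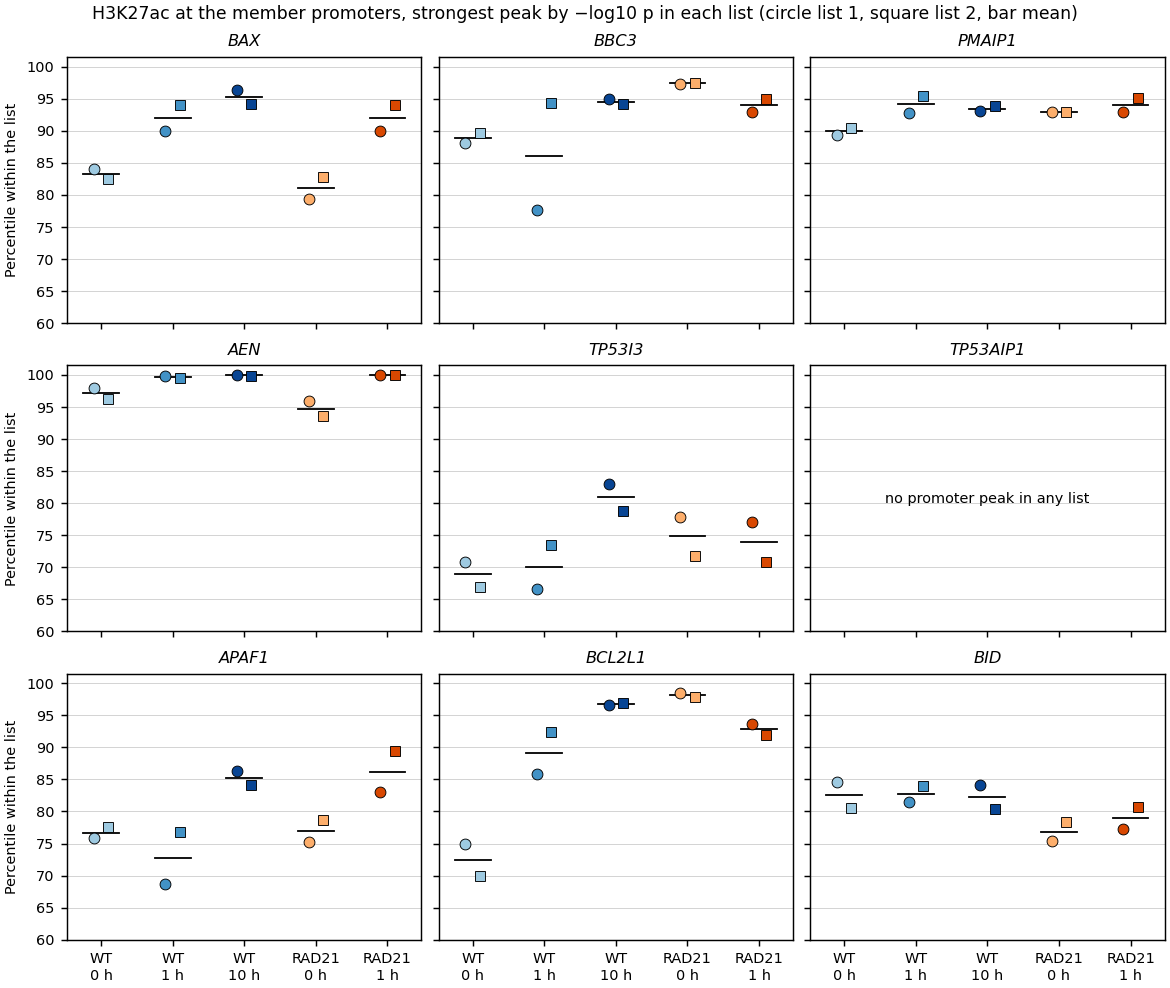
Percentile within the list (y axis, percent, drawn from 60 upward) of the strongest H3K27ac peak in the promoter region of each of the 9 genes, by cell line and hours of Nutlin-3a (x axis), with a circle for list 1, a square for list 2 and a bar for their mean. AEN reached 99.6 or more in all 6 treated lists, BCL2L1 ran from 69.9 and 74.9 in WT at 0 h to 97.9 and 98.5 in the RAD21 line at 0 h, and TP53AIP1 had no promoter peak.

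BAX encodes the pore-forming effector. Its promoter region (chr19:49457238-49459666, gene ENSG00000087088 at chr19:49458072-49465055 on the plus strand) had percentiles of 84.0 and 82.5 in WT at 0 h, 90.0 and 94.1 at 1 h, and 96.4 and 94.2 at 10 h. The RAD21 lists had 79.3 and 82.8 at 0 h and 89.9 and 94.1 at 1 h. All 6 treated lists stood above all 4 untreated ones. The share of all regions with such a separation was not computed, here or for the separations of lists given below. The normal score rose by 0.50 ± 0.142 (SE) at 1 h and by 0.64 ± 0.142 at 10 h in WT (limma, Benjamini-Hochberg adjusted p = 0.0184 and 0.00952). It rose by 0.75 ± 0.142 in the RAD21 line (adjusted p = 0.00185), and the difference between the lines, 0.25 ± 0.200, did not pass the threshold (limma, adjusted p = 0.395). With WT 1 h replicate 1 as the only 1 h list, the rise within 1 list form was 0.42 (limma, adjusted p = 0.0248, the lone list taken to vary like the others). The 1 h call in WT was lost without either 0 h list (0.52 and 0.48, limma, adjusted p = 0.0848 and 0.109, without replicate 1 and 2). The 10 h call was lost in 3 of 4 fits that left out 1 list, all but the one without WT 10 h replicate 2, with adjusted p from limma up to 0.0949, and with a term for the list form it was 0.47 (adjusted p = 0.183). The summits lay 244 to 337 bp downstream of the start site in all 10 lists, and the peaks were 966 and 1063 bp wide in WT at 0 h and 1384 to 2407 bp wide in the other lists.

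AEN, the exonuclease, had the strongest promoter of the 9 genes in every treated list. Its region (chr15:89163765-89170268) had the ranks 672 and 1202 from the top of the list in WT at 0 h, 46 and 160 at 1 h, and 8 and 39 at 10 h. The RAD21 line went from the ranks 1670 and 2791 at 0 h to 13 and 12 at 1 h. The untreated and treated lists did not overlap in either line, and the share of all regions with this was not computed. The rise was 0.94 ± 0.211 at 1 h and 1.45 ± 0.211 at 10 h in WT (limma, adjusted p = 0.00552 and 0.00111), and 2.02 ± 0.211 in the RAD21 line (adjusted p = 4.00e-05). Within 1 list form, WT 1 h replicate 1 alone gave 1.16 (limma, adjusted p = 6.00e-05), and without WT 0 h replicate 2 the 1 h call was lost (0.80, adjusted p = 0.0806). With a term for the list form the 10 h rise was 1.88 (limma, adjusted p = 0.000165). Of the 8 promoters, 2 changed more in the RAD21 line at 1 h than in WT and 1 less, where 11.7% and 11.0% of all regions were called, and AEN was one of the former with a difference of 1.08 ± 0.298 (limma, adjusted p = 0.0206). This difference missed the threshold without WT 0 h replicate 1 (0.94, limma, adjusted p = 0.112), RAD21 line 0 h replicate 2 (0.92, 0.104), or either RAD21 line 1 h list (1.09, 0.0610, and 1.06, 0.0683). The summits lay 174 to 250 bp downstream of the start site, and the AEN element printed above lies 24 bp upstream of it. Peak width was 1122 to 1290 bp in the 3 lists without the word input and 3736 to 5102 bp in the others.

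BCL2L1, the only member that restrains apoptosis, moved in opposite directions in the 2 lines when ranked by −log10 p. Its promoter region (chr20:30277243-30312570) had percentiles of 74.9 and 69.9 in WT at 0 h, 85.9 and 92.4 at 1 h, and 96.6 and 96.9 at 10 h. Values in the RAD21 line went from 98.5 and 97.9 at 0 h to 93.7 and 92.0 at 1 h. The RAD21 line was thus higher than WT before Nutlin-3a, by 1.68 ± 0.130 (limma, adjusted p = 1.41e-06). In that comparison at 0 h, 2 member promoters were higher and 1 was lower, where 16.8% and 20.7% of all regions were called. After 1 h BCL2L1 rose by 0.78 ± 0.130 in WT and fell by 0.71 in the RAD21 line (limma, adjusted p = 0.00113 and 0.00155), and the difference of −1.49 ± 0.184 passed the threshold in all 8 fits that left out 1 list (adjusted p = 0.000169 with all lists). With WT 1 h replicate 1 as the only 1 h list, the WT rise was 0.65 (limma, adjusted p = 0.000316). Ranked by fold enrichment, the difference between the lines kept its sign and lost significance (limma, adjusted p = 0.216), where 0 of all 18757 regions passed. The fold enrichments in the RAD21 line overlapped, with 92.7 and 71.2 at 0 h and 75.2 and 95.1 at 1 h. The 10 h rise of BCL2L1 in WT, 1.32 ± 0.130 (limma, adjusted p = 9.16e-05), was past the threshold under every alternative tried. A term for the list form was among them (1.06, adjusted p = 0.000948).

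The shape of the BCL2L1 domain differed as well. The peak over the start site was 1342 and 2325 bp wide in WT at 0 h and 2221 bp in WT 1 h replicate 1, but 31149 bp in WT 1 h replicate 2 and 35137 and 35140 bp at 10 h. It widened in the RAD21 line from 6290 and 8835 bp at 0 h to 33501 and 34178 bp at 1 h, within 1 list form. The median width of all peaks in that line went from 788 and 785 bp to 1110 and 1169 bp. The widened peak ran from the start site into the gene. The summit of the strongest peak lay 18411 to 18472 bp inside the gene in WT at 0 h and 10 h, and 371 to 521 bp upstream of the start site in the other 6 lists. The 10 h rise in WT therefore cannot be assigned to the promoter alone. Further into the gene, a 17148 bp region (chr20:30259878-30277025) was called in all lists but the 3 without the word input, at percentiles of 53.2 to 74.6. This region holds the BCL2L1 element printed above, 44087 bp from the start site. It counted as gained at 10 h, and it was present in both RAD21 lists at 0 h.

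BBC3 encodes PUMA, and its region (chr19:47728096-47737262, gene ENSG00000105327 on the minus strand) joined peaks over the start site with peaks inside the gene. The strongest peak of the region had percentiles of 88.1 and 89.7 in WT at 0 h, 77.7 and 94.4 at 1 h, and 94.9 and 94.2 at 10 h. RAD21 line values went from 97.3 and 97.5 at 0 h to 93.0 and 94.9 at 1 h. The 2 WT 1 h lists fell on either side of the 0 h lists. No change after Nutlin-3a passed the threshold, with −0.11 ± 0.200 and 0.23 ± 0.200 in WT and −0.43 ± 0.200 in the RAD21 line (limma, adjusted p = 0.717, 0.444 and 0.125). The 2 lists of WT 1 h decide the first value, which was −0.52 with replicate 1 alone and 0.31 with replicate 2 alone (limma, adjusted p = 0.00174 and 0.0427). BBC3 was higher in the RAD21 line than in WT at 0 h by 0.72 ± 0.200 (limma, adjusted p = 0.0129), and this call was lost in each of the 4 fits that left out 1 list. With a term for the list form the change at 10 h turned to −0.60 (limma, adjusted p = 0.0417).

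The strongest peak in the BBC3 promoter window, which spans 1000 bp before the start site and 200 bp after it, gave another picture. In WT 0 h replicate 1 it did not reach the start site, which lay 66 bp from the nearest peak. Its percentiles were 52.1 and 61.6 in WT at 0 h, 42.4 and 94.4 at 1 h, and 94.9 and 94.2 at 10 h, and 79.8 and 83.0 at 0 h and 93.0 and 94.9 at 1 h in the RAD21 line. The 2 untreated lists lay below the 2 treated ones of the RAD21 line, and below the 10 h lists of WT. At 0 h the strongest peak of the region had its summit 4507 to 4569 bp inside the gene in both lines, and at 10 h it lay 322 and 358 bp upstream of the start site. At 1 h the summit lay 4542 and 4556 bp inside the gene in WT, and 210 and 4561 bp inside it in the RAD21 line. With this peak in place of the strongest peak of the region, a choice made after seeing the data, the 10 h rise in WT was 1.65 (limma, adjusted p = 0.0260), against the −0.60 that the list-form term gave for the whole region. With the same choice the change at 1 h was 0.61 in WT and 0.91 in the RAD21 line (limma, adjusted p = 0.338 and 0.158), and the difference between the lines at 0 h was 0.80 (adjusted p = 0.186). The peak in the promoter window was 412 to 2216 bp wide in the 3 lists without the word input, 3683 and 3882 bp in the RAD21 line at 0 h, and 8569 to 9031 bp in the other 5 lists. In those 5 lists it was the single peak of the region and joined the promoter with the part inside the gene. Its higher percentile there cannot be assigned to the promoter alone. The BBC3 element 131 bp upstream lay inside the region.

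Neither PMAIP1, the gene of NOXA, nor BID changed past the threshold in any Nutlin-3a comparison. The PMAIP1 promoter region (chr18:57565998-57570436) held percentiles of 89.3 and 90.5 in WT at 0 h and between 92.8 and 95.5 in the other 8 lists. Its change was 0.31 ± 0.122 in WT at 1 h, 0.04 ± 0.122 at 10 h and 0.15 ± 0.122 in the RAD21 line (limma, adjusted p = 0.0750, 0.835 and 0.391). The BID region (chr22:18255841-18257835) had percentiles between 80.4 and 84.6 in the 6 WT lists and between 75.4 and 80.7 in the RAD21 line. BID was lower in the RAD21 line at 0 h, by −0.52 ± 0.124 (limma, adjusted p = 0.00578; without WT 0 h replicate 1, −0.43, adjusted p = 0.0683), and its change at 10 h in WT was −0.37 ± 0.124 (adjusted p = 0.0525). Across the 10 lists the BID score ran against that of BCL2L1 (Pearson r = −0.865) and the BAX score ran with that of AEN (r = 0.886). They are the lowest and highest of all pairs of the member promoters, and the other pairs had r from −0.737 to 0.679. These r values describe 10 lists that share their groups and list forms.

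APAF1, the scaffold of the apoptosome, shares its promoter region (chr12:99037008-99040494) with a start site of IKBIP, and the summits lay 625 to 707 bp upstream of the APAF1 start site. Its percentiles were 75.8 and 77.6 in WT at 0 h, 68.7 and 76.8 at 1 h, and 86.3 and 84.1 at 10 h. In the RAD21 line they went from 75.2 and 78.6 at 0 h to 83.0 and 89.4 at 1 h. The score rose by 0.56 ± 0.137 in the RAD21 line (limma, adjusted p = 0.00899), while the change in WT at 1 h was −0.26 ± 0.137 (adjusted p = 0.175), and the difference of 0.82 ± 0.194 passed the threshold (adjusted p = 0.00939). The rise in the RAD21 line was lost without replicate 2 at 1 h (0.35, limma, adjusted p = 0.139) and without replicate 1 at 0 h (0.50, adjusted p = 0.0714), and the difference between the lines without the former (0.61, adjusted p = 0.0558). At 10 h in WT the score changed by 0.08 ± 0.137 (limma, adjusted p = 0.724), although both 10 h percentiles were above those at 0 h. Percentiles are taken over all peaks of a list and scores over the shared regions.

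TP53I3 had percentiles from 66.7 to 83.0 in its promoter region (chr2:24306268-24308201) and was the lowest of the 8 promoters in every list except RAD21 line 0 h replicate 1. Its changes of −0.07, 0.13 and 0.01 (SE 0.153 each) were within the spread between lists (limma, adjusted p = 0.783, 0.596 and 0.978). TP53AIP1 had no H3K27ac peak over its start site in any list, and the nearest peak lay 1813 bp away in WT 10 h replicate 1 and 11910 to 36688 bp away in the other 9 lists.

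**Figure D2:**
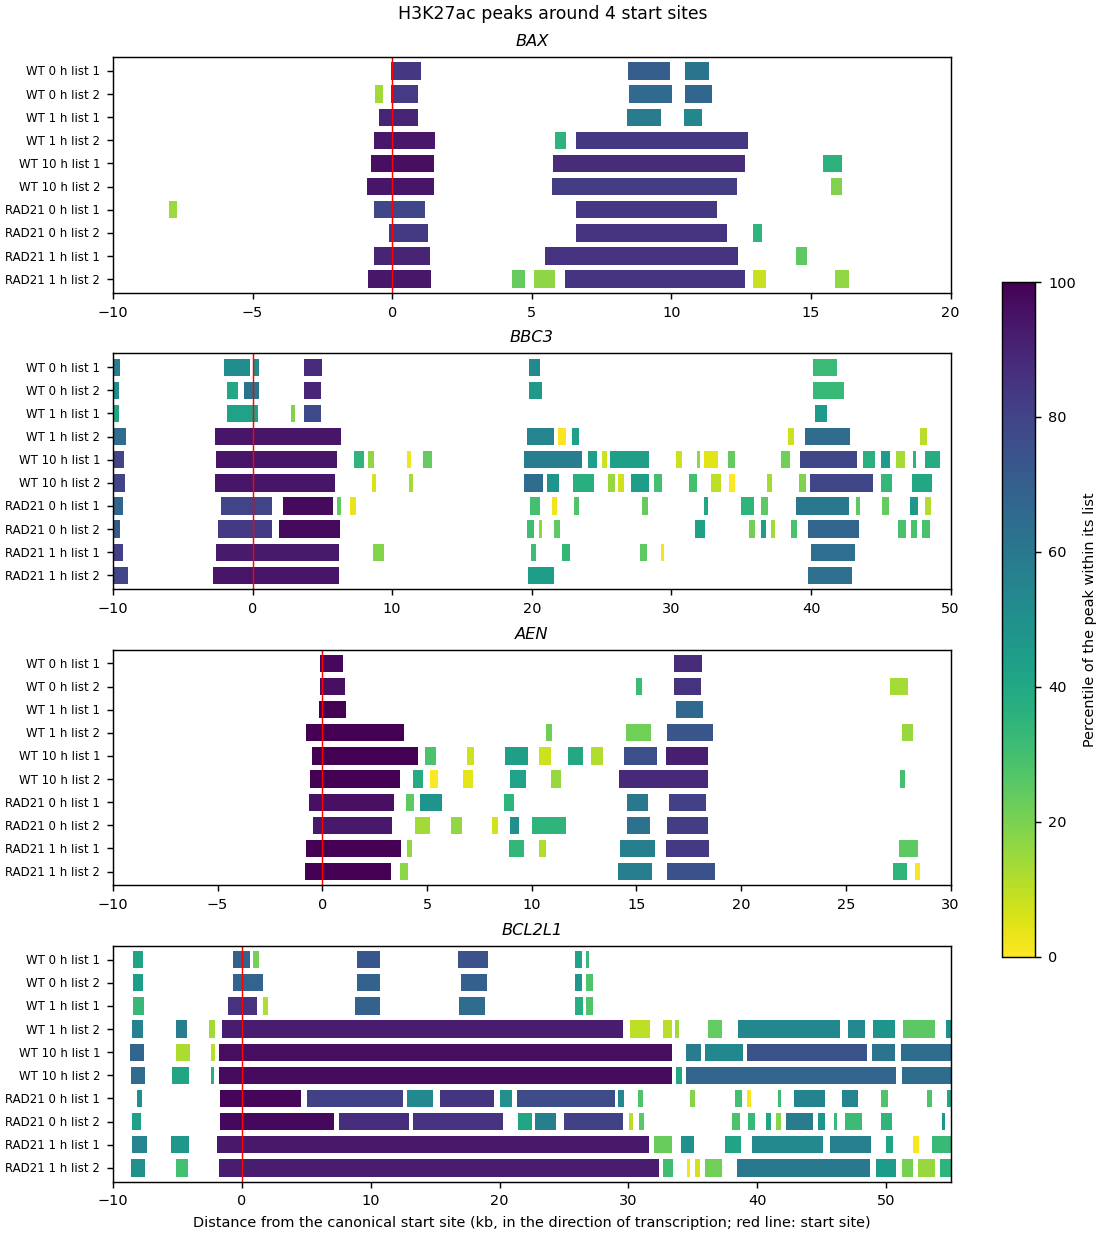
H3K27ac peaks of the 10 lists, 1 line of bars per list, around the start sites of BAX, BBC3, AEN and BCL2L1 by distance from the start site in kb along the direction of transcription (x axis), coloured by percentile within the list. One bar of 31149 to 35140 bp lies over the BCL2L1 start site in WT 1 h replicate 2, WT 10 h and the RAD21 line at 1 h, where the RAD21 line at 0 h has several shorter bars and the 3 lists without the word input have a few narrow ones.

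Beyond the promoters, the 9 windows held more H3K27ac peaks after 10 h. WT lists held 52 and 54 peaks at 0 h, 51 and 80 at 1 h, and 120 and 105 at 10 h, which covered 52.8 and 54.2 kb, 52.1 and 156 kb, and 203 and 188 kb. The RAD21 lists held 94 and 97 peaks at 0 h and 71 and 72 at 1 h, which covered 126 and 134 kb and then 164 and 174 kb. Fewer and wider peaks thus covered more of the windows at 1 h in the RAD21 line. The whole lists of that line widened too, from a median peak width of 788 and 785 bp to 1110 and 1169 bp. Their cover went from 49.1 and 53.2 Mb to 62.6 and 64.1 Mb. Per Mb covered by its whole lists, the windows held 2.56 and 2.52 kb at 0 h and 2.62 and 2.71 kb at 1 h. Per Mb covered by the whole list the windows held 1.63 to 1.76 kb in the 3 lists without the word input and 2.52 to 3.05 kb in the other 7. BBC3 and BCL2L1 had the widest cover, with 51.3 and 42.4 kb at BBC3 and 77.3 and 74.5 kb at BCL2L1 in the 10 h lists.

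**Figure D3:**
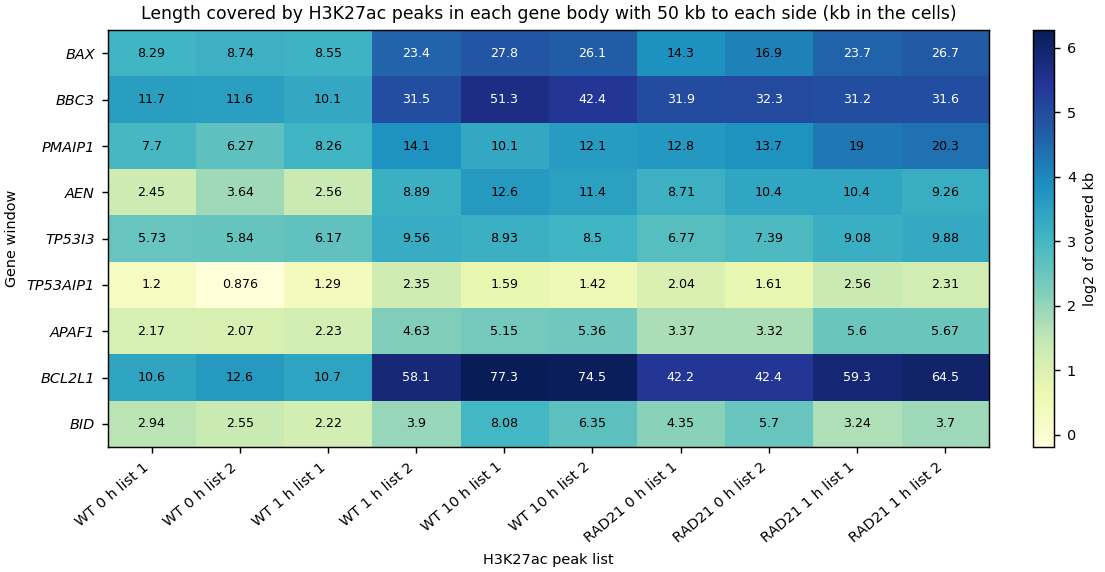
Length covered by H3K27ac peaks in each gene body with 50 kb to each side, for the 9 genes (y axis) and 10 lists (x axis), with the value in kb in each cell and its log2 as the colour. WT 1 h replicate 1 lies near the 0 h lists at every gene (10.7 kb at BCL2L1), and WT 1 h replicate 2 reaches 58.1 kb at BCL2L1.

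A region was called gained when both later lists and neither reference list held it, and lost in the opposite case. These are counts of presence, and no test was run on them. In WT at 10 h, 32 of the 158 H3K27ac regions at the 9 genes (20.3%) were gained and 0 were lost, where 11.4% of all regions were gained and 1.90% lost. The gains lay at BBC3 (9), BCL2L1 (8), BAX (5), BID (4), AEN (3), APAF1 (1), PMAIP1 (1) and TP53I3 (1). At AEN all 3 were inside the gene (chr15:89171310-89171794, chr15:89173253-89174375 and chr15:89174580-89176219). At PMAIP1 the gained region covered the 3′ end of the gene (chr18:57571026-57572786). At BBC3, 6 of the 9 lay in introns of SAE1 and 1 in an exon of SAE1, 26.9 to 55.8 kb downstream of the BBC3 start site, with 1 further region in an exon of BBC3 (chr19:47725059-47726154) and 1 between the genes. At BCL2L1, 5 of the 8 lay in the neighbour TPX2, 28.7 to 47.4 kb upstream of the BCL2L1 start site. The BAX gains lay in the neighbours GYS1 (2) and RUVBL2 (3), and those of BID in BCL2L13 (3) and MICAL3 (1). At 1 h, 21 regions of the windows were gained with WT 1 h replicate 2 as the only 1 h list, and 1 with replicate 1. The shares of all regions gained with either list alone were not computed, so these 2 counts have no background. Replicate 2 covered 59.5 Mb of the genome and replicate 1 31.9 Mb. These 2 lists differ in list form and in replicate, and the part of either in the counts was not tested.

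In WT at 1 h only 1 region was gained and 2 were lost, where 1.51% and 1.32% of all regions were. The gain was an intergenic region 23.3 kb downstream of the PMAIP1 start site (chr18:57589822-57591202). The losses were an intron of BID (chr22:18236774-18237770) and an exon of TPX2. In the RAD21 line at 1 h, 3 regions were gained and 8 lost, where 4.61% and 2.87% of all regions were. The gains were a region 4.74 kb upstream of the BCL2L1 start site (chr20:30314664-30316163), which WT gained by 10 h, and regions in introns of IKBIP and ISG20. 5 of the 8 losses lay in introns of SAE1 downstream of BBC3, 1 in an intron of CCDC9 upstream of it, and 2 in the BID window, among them the BID intron lost in WT.

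Of the 30 H3K27ac regions at the 9 genes that were called in every list, 12 passed the threshold in WT at 1 h (7 higher, 5 lower), where 14.3% and 14.8% of all regions did. At 10 h 9 passed (6 and 3, against 9.70% and 8.56%), and in the RAD21 line at 1 h 8 (6 and 2, against 14.4% and 13.4%). Ranked by fold enrichment, 0 passed in either 1 h comparison, and 0 of all 18757 regions did. A region within SAE1, 41.2 kb downstream of the BBC3 start site (chr19:47689858-47696632), had percentiles of 32.2 and 32.8 in WT at 0 h, 45.6 and 65.1 at 1 h, and 78.6 and 79.2 at 10 h. It rose by 0.84 ± 0.170 and 1.55 ± 0.170 (limma, adjusted p = 0.00318 and 0.000190). A region 11.5 kb upstream of the BBC3 start site (chr19:47743412-47748566) went the other way, from 91.0 and 92.6 in WT at 0 h to 80.4 and 85.7 at 1 h, and from 94.7 and 95.8 to 81.1 and 79.9 in the RAD21 line. It fell by 0.58 at 1 h and by 0.48 at 10 h in WT (limma, adjusted p = 0.00210 and 0.0111) and by 1.02 in the RAD21 line (adjusted p = 4.65e-05). The untreated and treated lists of both lines did not overlap there, and the share of all regions with this was not computed. The 10 h call held in 1 of 4 fits that left out 1 list.

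2 intergenic regions downstream of PMAIP1 rose. The nearer, 9.47 kb from the start site (chr18:57575296-57578096), had percentiles of 7.08 and 2.87 in WT at 0 h and 28.2 to 50.7 in the other 8 lists, and rose by 1.46 ± 0.376 at 1 h (limma, adjusted p = 0.0117). The farther, at 55.8 kb (chr18:57616462-57629501), rose by 0.62 ± 0.173 at 1 h and 1.02 ± 0.173 at 10 h (limma, adjusted p = 0.0171 and 0.00275). The 1 h call of the nearer held in 3 of 4 fits that left out 1 list, and that of the farther in 1 of 4. Around BAX, an intergenic region 28.5 kb upstream rose by 0.48 at 10 h and the promoter of DHDH fell by 0.91, calls that were lost in each of the 4 fits that left out 1 list. Next to AEN, the promoter of ISG20, an RNA exonuclease gene, fell by 0.85 at 1 h in WT, from 87.5 and 85.2 to 66.7 and 73.3, and stood at 91.4 and 88.9 at 10 h (limma, adjusted p = 0.000922 at 1 h). The other calls in WT were the promoters of WDCP (1.20 at 1 h), SF3B6 with FAM228B (−0.45 at 1 h) and PFN4 (−0.74 at 10 h) around TP53I3, and of CCDC9 (−0.83 at 1 h) and INAFM1 (−0.41 at 1 h) around BBC3. In the RAD21 line at 1 h they were the promoters of SLC25A3 (0.64), INAFM1 (0.49) and TPX2 (0.46).

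In the RAD21 line against WT at 0 h, 14 of the 30 regions passed the threshold, 9 higher and 5 lower, against 16.8% and 20.7% of all regions. Besides BCL2L1, BBC3 and BID, the higher ones were both PMAIP1 downstream regions (1.49 and 0.80), the region in SAE1 (0.94), an intron of KCNJ5 near TP53AIP1 (1.07) and the promoters of FKBP1B (0.84), GYS1 with RUVBL2 (0.58) and TPX2 (0.41). The lower ones were the promoters of SLC25A3 (−0.74), INAFM1 (−0.68) and ISG20 (−0.46) and the BAX upstream region (−0.44). The 2 WT lists at 0 h are of one list form and the RAD21 lists of the other. With a term for the list form, 5 of the 30 passed (2 higher, 3 lower), where 2215 of all 18757 regions were higher and 2480 lower. Of the member promoters BCL2L1 held (1.42, limma, adjusted p = 2.19e-06), while BID (−0.42, adjusted p = 0.109) and BBC3 (−0.12, adjusted p = 0.662) did not.

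For H3K4me1, the merged region at 8 of the 9 promoters held a peak in all 6 lists, again all but TP53AIP1. At APAF1 a peak lay in the promoter window itself in 1 of the 6 lists, and the flanks carried the region in the others. None of these 8 passed the threshold at 1 h or 10 h over the 60476 regions fitted with limma, where 0.291% of all regions were called higher and 0.304% lower at 1 h, and 0.615% and 0.0231% at 10 h. At 10 h, AEN (0.39 ± 0.177) and BAX (−0.57 ± 0.151) had an unadjusted limma p under 0.05, with adjusted p = 0.549 and 0.147. The BAX region is shared with the neighbour FTL, and by the peak in the BAX promoter window itself, a choice made after seeing the data, the change was 0.85 (limma, adjusted p = 0.0415). That peak was 3109 and 3215 bp wide at 0 h. At 10 h it was 13818 and 11607 bp wide and was also the strongest peak of the whole shared region. The value of 0.85 therefore compares peaks of unlike extent and does not isolate the BAX promoter. Of the 53 regions at the 9 genes that were called in all 6 lists, 1 passed, an exonic region of SAE1 21.0 kb downstream of the BBC3 start site (chr19:47711721-47715120) that fell by 1.14 at 1 h (limma, adjusted p = 0.0222), a call lost in each of the 4 fits that left out 1 list. Its percentiles were 86.0 and 82.3 at 0 h, 60.4 and 47.7 at 1 h, and 79.9 and 76.2 at 10 h.

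The genes differed in how the mark sat around the start site. BAX, BID and TP53I3 had their start site under an H3K4me1 peak in 6 of 6 lists, BCL2L1 in 5, BBC3 in 4, AEN in 2, APAF1 in 1 and PMAIP1 in 0. BCL2L1 carried the widest domain, with a peak of 62610 to 73720 bp at percentiles of 97.8 to 99.3 over nearly the whole gene. At BBC3 the start site was covered at 0 h and 1 h by peaks 9149 to 12042 bp wide, and at 10 h it fell into a gap, 136 and 132 bp from the nearest peak. At PMAIP1 the nearest peak ended 209 to 480 bp from the start site in all lists.

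Between 0 h and 1 h, 2 H3K4me1 regions at the 9 genes were gained and 4 lost, where 3.30% and 1.75% of all regions were, and at 10 h 2 were gained and 3 lost, where 2.63% and 2.29% were. The gain at 10 h inside TP53AIP1 (chr11:128809708-128812364) began 434 and 402 bp from its start site in the 2 lists. It was absent in both 0 h lists, at percentile 6.0 in 1 of the 2 lists at 1 h, and at 59.8 and 57.2 at 10 h, and it holds the TP53AIP1 element printed above. The other gained region, 35.2 kb upstream of PMAIP1 (chr18:57531392-57532639), was gained at both times, at 10.6 and 37.8 at 1 h and 51.4 and 41.2 at 10 h. A region 6.67 kb upstream of BBC3 (chr19:47739701-47742558) was at 11.2 and 0.709 at 0 h, absent at 1 h, and at 58.9 and 55.3 at 10 h. The remaining 1 h calls were a gain in WDCP near TP53I3 and losses in APAF1 (2) and downstream of BBC3 (1). At 10 h the losses were the same region downstream of BBC3, 1 in CCDC9 and 1 in an intron of BID (chr22:18236121-18237708). All H3K4me1 lists share 1 list form.

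**Figure D4:**
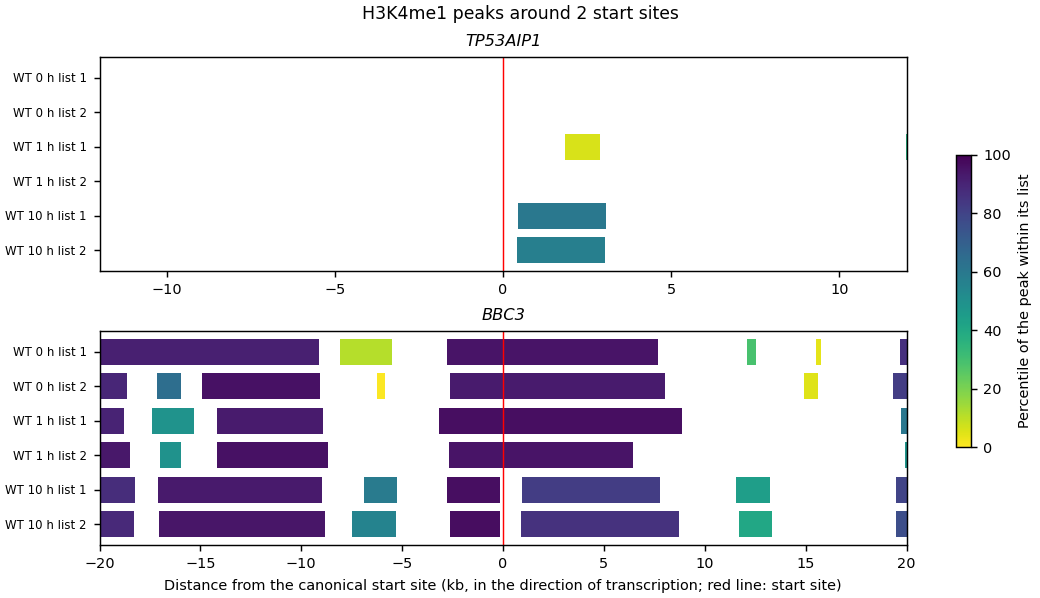
H3K4me1 peaks of the 6 WT lists, 1 line of bars per list, around the start sites of TP53AIP1 and BBC3 by distance from the start site in kb along the direction of transcription (x axis), coloured by percentile within the list. Both 10 h lists hold a peak just inside TP53AIP1, at percentiles of 59.8 and 57.2, and a gap at the BBC3 start site.

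Other genes of the pathway were followed at 24 promoters, of which 22 carried H3K27ac in every list. The share of all protein-coding promoters that did so was not computed. In WT at 1 h, 2 of the 22 were higher and 4 lower, where 14.3% and 14.8% of all regions were, and at 10 h 0 were higher and 3 lower, where 9.70% and 8.56% were. BOK, a BAX-like gene, and VDAC1, a channel of the outer membrane, rose at 1 h by 0.75 and 0.46. The caspase gene CASP9, the IAP antagonist DIABLO and the flavoprotein AIFM1 were among those that fell, by 0.49 to 0.52. At 10 h the promoter of BIRC5, which encodes the apoptosis inhibitor survivin, fell by 1.42 (limma, adjusted p = 0.000423), and that of BCL2 fell by 0.64. The RAD21 line at 1 h had 6 higher and 3 lower, where 14.4% and 13.4% of all regions were. BIRC5 rose there by 0.97 and the mitochondrial protease HTRA2 by 0.92, whereas VDAC3 fell by 0.78 and the BH3-only gene BAD by 0.52. The calls of BCL2 at 10 h and of BAD in the RAD21 line were lost in each of the 4 fits that left out 1 list. Those of CASP9 and VDAC1 in WT at 1 h held in 2 of 4, and those of DIABLO and AIFM1 in 3 of 4. The median change over the 22 was −0.09, −0.03 and 0.15 in the 3 comparisons. None of the 23 promoters that could be fitted for H3K4me1 passed the threshold at 1 h or 10 h with limma.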

How the data were processed

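Per the study's methods, the authors trimmed paired-end ChIP-seq reads (Trim Galore 0.6.6), aligned them to GRCh37 (Bowtie2 2.3.2), removed poor, duplicate and blacklisted alignments and called peaks with MACS2 2.2.7.1, narrow for H3K27ac and broad for H3K4me1, with an input sample as control. Each deposited peak list, 1 per library, gives every peak's fold enrichment, its −log10 p-value and −log10 q-value, and a score, with signal summits for the narrow peaks. 16 lists were used, and the 10 input samples were not analysed here. Why 3 lists lack the word input in their peak names is not given in the sources used here.

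Overlapping peaks (1 bp or more) of a mark were merged into regions with Python 3.11.15 and pandas 2.3.3, and a promoter was 1000 bp upstream to 200 bp downstream of a start site. A region took its strongest peak by −log10 p in each list. Ranks among regions called in every list of a mark were turned into normal scores and fitted with limma 3.58.1 (R 4.3.3, lmFit, eBayes with a trend), 1 mean per group, with Benjamini-Hochberg adjustment over all regions and a threshold of 0.05. Ranks carry no depth and show a change relative to other regions only. The code was tested on simulated data. The text names all 9 genes, every other region at them that was gained, lost or called, the pathway promoters called in a Nutlin-3a comparison, and the 3 promoters most alike, except items not reported here. The members and lists were chosen with earlier results of these data known. Replicate numbers did not pair the lists: differences between replicates correlated at −0.0501 to 0.0453 between groups. Alternatives were other rankings, overlaps, windows, filters on the q-value, presence in 2 or more lists, a term for the list form, a replicate block and leaving out each list.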

Additional observations from a re-analysis of the deposited data

Results flagged for a closer look

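The difference between the lines in response to 1 h of Nutlin-3a was tested by limma, with Benjamini-Hochberg adjustment over all 18757 regions. Of the 30 H3K27ac regions at the 9 genes that were fitted, 8 passed the threshold. The change was higher in the RAD21 line at 5 and lower at 3, where 11.7% and 11.0% of all regions were called. Ranked by fold enrichment, 0 of all 18757 regions passed, so none of these 8 calls held. Member promoters made up 3 of the 8, with differences (RAD21 line minus WT) of 1.08 at AEN (adjusted p = 0.0206), 0.82 at APAF1 (adjusted p = 0.00939) and −1.49 at BCL2L1 (adjusted p = 0.000169). In the window of AEN the ISG20 promoter differed by 0.78 (limma, adjusted p = 0.0117), and in that of APAF1 the SLC25A3 promoter by 0.86 (adjusted p = 0.00816). In the BBC3 window the region in an intron of SAE1 differed by −0.79 (limma, adjusted p = 0.0319) and the INAFM1 promoter by 0.89 (adjusted p = 0.00293), and in the TP53I3 window the FKBP1B promoter by −1.13 (adjusted p = 0.0149). The SAE1 region held in 2 of 8 fits that left out 1 list, ISG20 in 6, FKBP1B in 7, and SLC25A3 and INAFM1 in 8. The 2 WT lists at 1 h have different list forms. With a term for the list form the differences were 0.86 at AEN, 0.84 at APAF1 and −1.36 at BCL2L1 (limma, adjusted p = 0.00800, 0.00160 and 8.96e-07), and the SAE1 region lost significance (−0.63, adjusted p = 0.0652). In that fit 11 of the 30 regions passed, where 3241 of all 18757 regions were called higher and 2794 lower.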

How the results depend on the processing

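The 56 member promoter results had 576 values under the alternatives, of which 530 kept direction and side of the threshold, 35 lost significance, 7 gained it and 4 reversed. The reversals were BBC3 in WT at 1 h without WT 1 h replicate 1 (0.31), BBC3 with a list-form term for WT 10 h (−0.60) and for the 0 h lists of the lines (−0.12), and H3K4me1 at BAX at 10 h by the peak over the promoter itself (0.85). Of 69 other called results with 665 values, 220 lost significance and 3 reversed: INAFM1 at 1 h in WT (0.05) and SLC25A3 between the lines at 0 h (0.09), both by fold, and GYS1 with RUVBL2 between the lines with a list-form term (−0.05). BBC3 in WT at 1 h passed the threshold with −0.52 without WT 1 h replicate 2, so leaving out 1 list gave −0.52 to 0.31. The cause was not tested. The replicate block changed no member promoter call and no count at the 9 genes, for example 12 regions in WT at 1 h with the block.

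Counts of called regions at the 9 genes moved as follows. WT at 1 h (12) gave 0 by fold, 7 with regions of 2 or more lists, 7 within 10 kb and 6 to 17 with 1 list left out. WT at 10 h (9) gave 17 with 2 or more lists, 4 with the list form, 4 within 10 kb and 4 to 6 with 1 list left out. The RAD21 line at 1 h (8) gave 0 by fold, 16 with 2 or more lists, 13 with the list form, 5 within 10 kb, 13 within 100 kb and 5 to 6. The difference between lines (8) gave 0 by fold, 4 within 10 kb and 4 to 13. The lines at 0 h (14) gave 7 by fold, 5 with the list form, 5 within 10 kb, 23 within 100 kb and 7 to 10. H3K4me1 at 1 h (1) gave 0 by fold and 0 to 0 with 1 list left out, and at 10 h (0) gave 2 with 2 or more lists.

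Gained and lost counts moved as follows under −log10 q of 5 or more, 50% overlap, 10 kb and 100 kb windows, and with 1 list left out. H3K27ac gains in WT at 1 h (1) were 0, 0, 0, 3 and 1 to 21, and losses (2) 0, 0, 1 and 2 to 3. Gains in WT at 10 h (32) were 8 by q, 12 within 10 kb and 32 to 65, and losses (0) 1 within 100 kb and 1 to 2. Gains in the RAD21 line (3) were 12 by overlap, 10 within 100 kb and 4 to 13, and losses (8) 1 by q, 4 by overlap, 1 within 10 kb and 8 to 20. H3K4me1 gains at 1 h (2) were 0 by q, 0 within 10 kb, 7 within 100 kb and 3 to 8, and losses (4) 0 by q, 2 by overlap and 4 to 10. At 10 h gains (2) were 1 by q, 1 within 10 kb and 2 to 9, and losses (3) 0 by q, 1 by overlap and 5 to 9.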

Other observations

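Among the 3 protein-coding promoters outside the 9 windows whose H3K27ac scores ran most alike to the mean score of the 8 member promoters over the 10 lists were those of PRICKLE3 (Pearson r = 0.958) and FAM3C (r = 0.956), out of 10595 promoter regions. The lists share groups and list forms, and the values describe these lists only.

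In the pathway list, 7 of 22 promoters responded differently to 1 h of Nutlin-3a in the RAD21 line and in WT by limma. Of all regions, 11.7% had the higher and 11.0% the lower change in the RAD21 line. Ranked by fold enrichment, none of the 7 held, where 0 of all 18757 regions passed. Among the 7, BIRC5 (1.23), VDAC2 (0.76), HTRA2 (0.65) and AIFM1 (0.63) had the higher change in the RAD21 line, and BAD (−0.77) and VDAC3 (−0.56) the lower. In fits that left out 1 list, BIRC5 held in 8 of 8, AIFM1 in 5, HTRA2 and VDAC3 in 4, VDAC2 in 3 and BAD in 2.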
